A study of Arabidopsis thaliana with 4 samples.

Results

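UDP-glycosyltransferases (UGTs) were examined as a gene family across 4 Affymetrix arrays of Arabidopsis thaliana seedlings. A UGT moves a sugar, most often glucose, from a UDP-sugar onto a small acceptor molecule such as a hormone, a flavonol, a hydroxycinnamic acid or a foreign compound. The sugar makes the acceptor more soluble, usually takes away its activity and marks it for storage in the vacuole. Plant UGTs are numbered into families by sequence, and a letter marks the subfamily. Members of a family tend to sit side by side on a chromosome, and several act on acceptors of the same chemical class.

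A gene was taken as a member when the platform annotation paired a probe set with 1 gene alone and the gene's symbol was UGT followed by a digit. UGT74B1 and UGT74C1, enzymes of glucosinolate synthesis, were left out by the rule, and of these UGT74B1 had such a probe set. This gave 46 genes in 11 families, each measured by 1 probe set, among 22746 probe sets on the array. The TAIR10.1 gene table holds 58 genes with a UGT symbol. Of the 12 that are not members, 7 had no paired probe set in the annotation used and were not analysed here. UGT71, with 9 members, and UGT76, with 8, were the best covered families. UGT73 had 7 members, UGT84 and UGT85 had 5 each, UGT72 had 4, UGT78 had 3, UGT74 had 2, and UGT80, UGT87 and UGT88 had 1 each. UGT80B1 is a sterol glucosyltransferase that stands apart from the other UGTs in sequence.

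The arrays held 2 samples of wild-type Col-0 and 2 of T3 transgenic plants that overexpress RECA1 (AT1G79050), a plastid-targeted homologue of bacterial RecA, in the Col-0 ecotype, here called RECA1-OE. All samples shared 4 days of stratification. All seedlings were 2 weeks old, grew at 23 °C in days of 16 h light and 8 h darkness, and received no further treatment. The promoter of the transgene and the number of lines are not given in the sources used here. The labels do not say whether the biological replicates were grown separately, so the p-values measure the spread between these samples, which may be technical. The annotation paired 0 probe sets with RECA1, so its level was not checked against the labels.

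Values are MAS5 signals on a log2 scale, where a difference of 1 is a 2-fold change, and each pair of values gives replicate 1 and then replicate 2. A gene is called dim below when its mean over all 4 arrays lay under 6.82, the value that bounds the lowest 40% of all probe sets. By this limit 24 UGT genes were bright and 22 dim. The nearest member above the limit was UGT71C1, with a mean of 6.96, and the nearest below it was UGT84A4, with 6.58. Dim signals varied more between samples of a group, with a median standard deviation of 0.56 over all dim probe sets against 0.16 over bright ones. The precision of every value is limited by the number of arrays. RECA1-OE replicate 1 and replicate 2 correlated at r = 0.980 over the bright probe sets and the Col-0 arrays at r = 0.966, and Col-0 replicate 1 lay nearer than Col-0 replicate 2 to the RECA1-OE mean in 61.4% of bright probe sets and in 15 of the 24 bright UGT genes. Of the organ marker lists, the leaf gene RCA, with 14.22 to 14.56 on the 4 arrays, and the root gene PYK10, with 13.15 to 14.13, were both bright, and the other paired root gene, EXPA7, had 6.68 to 6.98. None of the 7 flower and seed markers had a paired probe set.

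UGT genes differed between RECA1-OE and Col-0 in both directions. UGT87A2, UGT76B1, UGT85A2 and UGT73B4 rose in RECA1-OE, by 1.74-fold to 4.20-fold, and UGT76C2 and UGT73C1 fell. In all, 4 of the 46 genes rose, 2 fell and 40 did not pass the test (limma, adjusted p under 0.05 over all 22746 probe sets). These 6 are 13.0% of the members, where 7.86% of all probe sets were called in either direction, 4.55% higher and 3.31% lower. By brightness, 5 of the 24 bright members were called, or 20.8%, against 12.1% of all bright probe sets, and 1 of the 22 dim members against 1.56% of all dim ones. Of the 5, UGT73B4 had a Col-0 mean of 6.51, in the dim range, and counts as bright through its RECA1-OE mean of 8.58. The share by brightness is therefore given as a description. The median log2 change was 0.02 over the members and -0.04 over all probe sets. The mean was higher in RECA1-OE for 23 members and lower for 23.

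The size of the changes, whatever their sign, had a median of 0.76 on the log2 scale over the 46 members and 0.39 over all probe sets, or 0.70 over the bright members and 0.31 over all bright probe sets. Both RECA1-OE arrays lay above both Col-0 arrays for 16 members, where 25.5% of all probe sets did so, and below them for 15, against 30.4%. Thus the groups did not overlap in 67.4% of the members and in 55.9% of all probe sets. A further 12 genes had an adjusted p between 0.053 and 0.088, of which 7 had a higher and 5 a lower mean in RECA1-OE. With these, 18 of the 46 members, or 39.1%, lay under 0.1, where 14.6% of all probe sets did, 7.39% higher and 7.26% lower. The 18 comprise 11 genes with a higher and 7 with a lower mean. These shares are descriptions of a gene family whose members are not independent of each other.

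**Figure D1:**
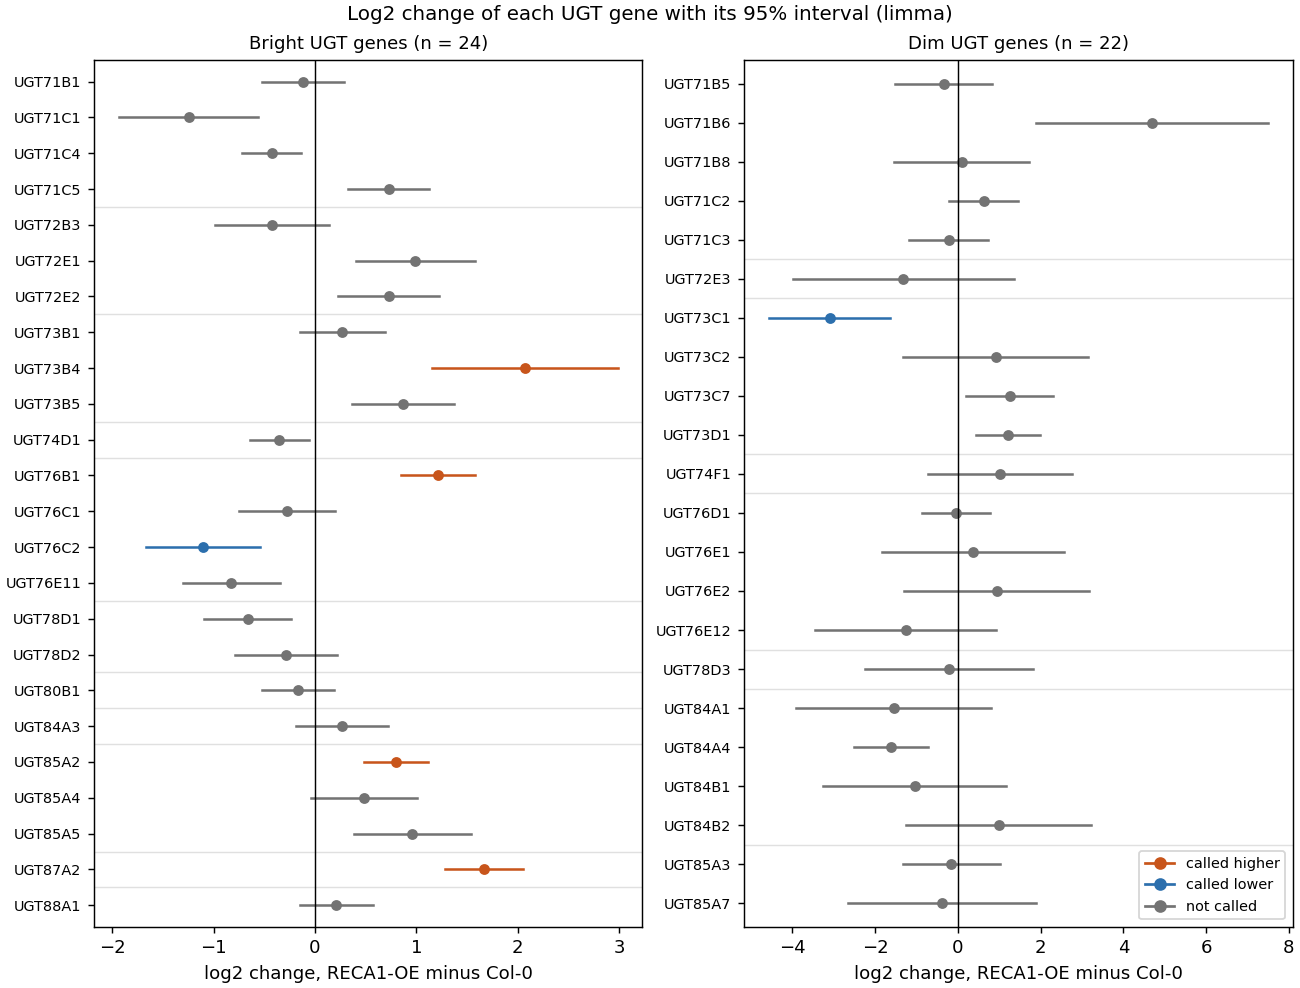
Log2 change (RECA1-OE minus Col-0, x axis) of each of the 24 bright and 22 dim UGT genes (y axis, in order of family, with lines between families), as a point with its 95% interval from limma. UGT73B4, UGT76B1, UGT85A2 and UGT87A2 were called higher and UGT76C2 and UGT73C1 lower, and the intervals are wider for the dim genes, as the separate x axes show.

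The number of calls depended on which arrays and probe sets were used. When the dim probe sets, the lowest 40%, were dropped before the fit, 9 of the 24 bright members rose and 4 fell, or 54.2% in all, where 19.9% of the probe sets tested were called, 9.94% higher and 9.96% lower. Of these calls, UGT73B4 and UGT71C1 are 2 genes with 1 group mean in the dim range, at 6.51 in Col-0 and 6.34 in RECA1-OE, and they passed the filter through the group in which they were high, so the share is given as a description. The 8 members gained there had adjusted p values of 0.016 to 0.046 in that setting, 0.053 to 0.088 with all probe sets and 0.013 to 0.374 over all settings tried. Without RECA1-OE replicate 1 or without RECA1-OE replicate 2, 1 array was left in that group, and no probe set was called, UGT or other. Without Col-0 replicate 1 there were 6 rises and 0 falls among the members, where 4.99% of all probe sets rose and 2.48% fell. Without Col-0 replicate 2 there were 4 rises and 0 falls, where 2.23% of all probe sets rose and 0.567% fell.

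**Figure D2:**
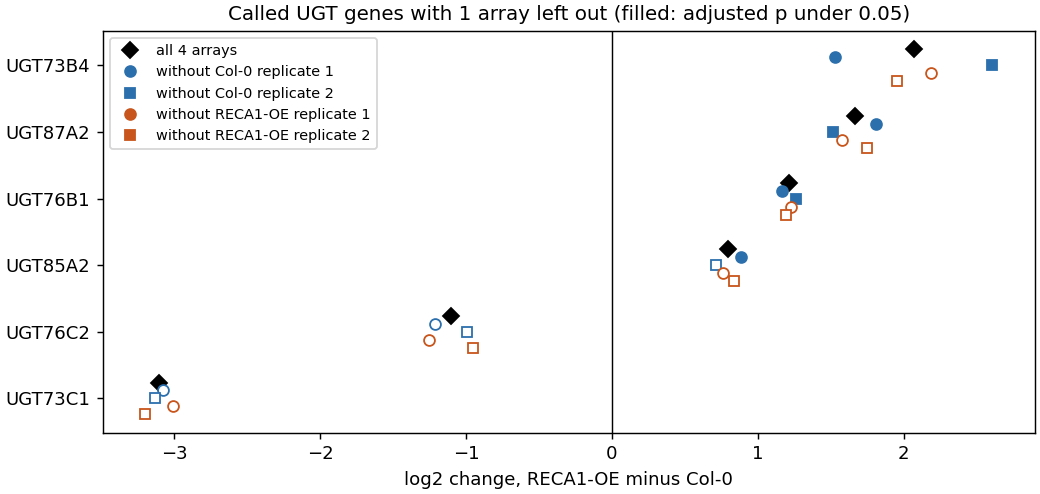
Log2 change (x axis) of the 6 called UGT genes (y axis) with all 4 arrays and with each array left out in turn, with filled symbols where the adjusted p lies under 0.05. Every change kept its sign, and no symbol is filled where a RECA1-OE array was left out. For UGT73B4 the estimate moved from 1.53 without Col-0 replicate 1 to 2.61 without Col-0 replicate 2.

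Family UGT76 held 1 gene called higher and 1 called lower. UGT76B1 (AT3G11340) encodes an enzyme that puts glucose on salicylic acid, on isoleucic acid and on N-hydroxypipecolic acid, a mobile signal of immunity. Its log2 signal was 7.76 and 7.86 in Col-0 and 9.01 and 9.04 in RECA1-OE. The arrays of each group nearly coincided and the groups lay well apart. It rose by 1.21 ± 0.15 (SE), a 2.32-fold change (limma, adjusted p = 0.014). The estimate stayed between 1.16 and 1.26 when each array was left out. This call was lost without either RECA1-OE array and without the mean-variance trend, where the limma adjusted p was 0.129. UGT76C2 (AT5G05860), which attaches glucose to the ring nitrogens of cytokinins, had 7.84 and 8.06 in Col-0 and 7.00 and 6.70 in RECA1-OE. It was lower on both RECA1-OE arrays and fell by 1.10 ± 0.23 (SE), a 2.15-fold change (limma, adjusted p = 0.044). The call was lost with any 1 array left out, with adjusted p values of 0.084 to 0.226, and without the mean-variance trend, at 0.154, and it ran from 0.014 to 0.226 over all settings. UGT76C1 (AT5G05870), its neighbour and the other cytokinin N-glucosyltransferase, had 8.17 and 8.08 in Col-0 and 7.68 and 8.02 in RECA1-OE. Its groups were narrowly apart, the difference was -0.28 ± 0.19 (SE) with a 95% interval of -0.75 to 0.20, and the adjusted p was 0.439. Whether the changes of UGT76C1 and UGT76C2 differ from each other was not tested.

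The UGT76E genes were mostly dim. UGT76E11 (AT3G46670), which acts on flavonols, was the bright member, with 8.01 and 8.26 in Col-0 and 7.34 and 7.29 in RECA1-OE. The RECA1-OE pair was lower, by a log2 difference of -0.83 ± 0.20 (SE), and the adjusted p of 0.061 did not pass. Its neighbour UGT76E12 had 4.23 and 4.39 in Col-0 and 1.93 and 4.16 in RECA1-OE, with 1 RECA1-OE array far below the other 3, and a difference of -1.26 ± 0.89. UGT76E1, an enzyme of jasmonate glucosylation, had 2.20 and 1.29 in Col-0 and 1.99 and 2.23 in RECA1-OE, near the bottom of the scale on every array, and UGT76E2 differed by 0.94 ± 0.91 with overlapping groups. UGT76D1 (AT2G26480), which acts on dihydroxybenzoic acids made from salicylic acid, had 6.21 and 6.53 in Col-0 and 6.57 and 6.09 in RECA1-OE, with no separation of the groups and a difference whose 95% interval was -0.87 to 0.79. Its sign turned after quantile normalization, to 0.034.

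In family UGT74, UGT74D1 (AT2G31750), a glucosyltransferase of auxins and of oxidised auxin, had 9.78 and 9.78 in Col-0 and 9.43 and 9.42 in RECA1-OE. The difference of -0.35 ± 0.12 (SE) was small beside that of UGT76B1 but regular, since the samples within each group differed by far less, and the adjusted p was 0.135. UGT74F1 (AT2G43840), which forms the salicylic acid glucoside, was dim, with 5.09 and 3.40 in Col-0 and 4.93 and 5.59 in RECA1-OE. Its groups overlapped and its 95% interval of -0.73 to 2.76 includes 0.

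The UGT84 genes encode enzymes that form glucose esters. UGT84A1, UGT84A3 and UGT84A4, neighbours on chromosome 4, act on hydroxycinnamic acids such as sinapate, and UGT84B1 and UGT84B2, neighbours on chromosome 2, on auxin. UGT84A3 (AT4G15490) was the bright member, with 8.53 and 8.76 in Col-0 and 9.10 and 8.72 in RECA1-OE, and a difference of 0.26 ± 0.19 (SE) with overlapping groups. UGT84A4 (AT4G15500) had 7.48 and 7.29 in Col-0 and 6.19 and 5.37 in RECA1-OE. In RECA1-OE both values were lower and lay under the limit for dim signals, the difference was -1.61 ± 0.36 (SE), and the adjusted p of 0.054 did not pass. UGT84A1 (AT4G15480) had 4.55 and 2.46 in Col-0 and 1.81 and 2.09 in RECA1-OE, below the limit on every array, with 1 Col-0 array above the other 3. The auxin enzymes UGT84B1 and UGT84B2 were dim too and differed by -1.04 ± 0.90 and 0.98 ± 0.91 (SE), with intervals that span 0. No UGT84 gene passed the test.

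Family UGT72 includes the enzymes that glucosylate monolignols, the alcohols from which lignin is built. UGT72E1 (AT3G50740), which acts on coniferyl and sinapyl aldehydes, had 10.62 and 9.91 in Col-0 and 11.16 and 11.35 in RECA1-OE. The RECA1-OE arrays were both higher, although Col-0 replicate 1 lay nearer to their mean than to Col-0 replicate 2. The log2 difference was 0.99 ± 0.24 (SE) and the adjusted p 0.064. It was called without Col-0 replicate 1, where the difference was 1.34, and not without Col-0 replicate 2, where it was 0.64. UGT72E2 (AT5G66690), the main coniferyl alcohol glucosyltransferase, had 9.93 and 9.51 in Col-0 and 10.64 and 10.25 in RECA1-OE, again with both RECA1-OE arrays higher, a difference of 0.73 ± 0.20 and an adjusted p of 0.088. UGT72E3 (AT5G26310), which acts on sinapyl alcohol, had 5.74 and 5.07 in Col-0 and 2.44 and 5.74 in RECA1-OE, and 1 low RECA1-OE array set the sign of its difference of -1.32 ± 1.09. UGT72B3 (AT1G01420) had 8.21 and 7.72 in Col-0 and 7.52 and 7.58 in RECA1-OE, slightly lower in RECA1-OE, with an adjusted p of 0.324. None of the 4 genes passed the test with all probe sets, and UGT72E1 and UGT72E2 were among those that passed with the lowest 40% left out.

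The UGT78D genes attach sugars to the 3-hydroxyl group of flavonols. UGT78D1 (AT1G30530), the rhamnosyltransferase, had 9.25 and 9.40 in Col-0 and 8.47 and 8.85 in RECA1-OE. Its values in RECA1-OE were lower, by a log2 difference of -0.67 ± 0.18 (SE), and the adjusted p was 0.079. UGT78D2 (AT5G17050), the glucosyltransferase that serves flavonols and anthocyanins, had 8.72 and 9.18 in Col-0 and 8.81 and 8.52 in RECA1-OE. Its groups overlapped, and the 95% interval of the difference was -0.79 to 0.22. UGT78D3 (AT5G17030), the arabinosyltransferase, had 2.26 and 2.35 in Col-0 and 1.87 and 2.32 in RECA1-OE, close to the bottom of the scale in both groups. The 3 means were all lower in RECA1-OE, and no gene of the 3 passed.

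Family UGT71 had no call among its 9 genes, although it held the largest difference among the members. UGT71B6 (AT3G21780) encodes a glucosyltransferase of abscisic acid. Its log2 signal was 4.73 and 1.08 in Col-0 and 7.75 and 7.43 in RECA1-OE. In RECA1-OE both values were above the limit for dim signals and both Col-0 values below it, and the Col-0 arrays differed from each other by more than most genes differed between groups. The estimate of 4.69 ± 1.14 (SE) had a 95% interval of 1.89 to 7.49 and an adjusted p of 0.065, and it ran from 2.86 without Col-0 replicate 2 to 6.51 without Col-0 replicate 1, in both of which it was called. With 16 added to each linear value, which damps dim signals, it was called as well, with an estimate of 2.91 and an adjusted p of 0.018, where the adjusted p ran from 0.0055 to 0.331 over all 9 settings, and no fold is given because the Col-0 level lies in the dim range. UGT71C5 (AT1G07240), which also makes the glucose ester of abscisic acid, had 9.01 and 8.80 in Col-0 and 9.78 and 9.49 in RECA1-OE. The groups did not overlap, and RECA1-OE was higher by 0.73 ± 0.16 (SE), with an adjusted p of 0.053.

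The other UGT71C genes had differences of both signs, and none passed the test. UGT71C1 (AT2G29750), which acts on flavonols and hydroxycinnamic acids in vitro, had 7.85 and 7.33 in Col-0 and 6.31 and 6.37 in RECA1-OE. Its RECA1-OE values were lower and lay under the dim limit, with a difference of -1.25 ± 0.28 (SE) and an adjusted p of 0.054. UGT71C4 (AT1G07250), next to UGT71C5 on chromosome 1, had 10.20 and 10.12 in Col-0 and 9.74 and 9.72 in RECA1-OE. The difference of -0.43 ± 0.12 (SE) was of opposite sign to that of its neighbour, with an adjusted p of 0.087. UGT71C2, the neighbour of UGT71C1, had 6.60 and 5.90 in Col-0 and 6.90 and 6.84 in RECA1-OE. The differences of this pair on chromosome 2 were also of opposite sign. UGT71C3, a methyl salicylate glucosyltransferase, differed by -0.22 ± 0.39 and its groups overlapped. Of the UGT71B genes besides UGT71B6, UGT71B1 differed by -0.12 ± 0.17, UGT71B5 by -0.34 ± 0.48 and UGT71B8 by 0.09 ± 0.67 (SE), all with adjusted p values of 0.711 or more.

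Family UGT73 includes enzymes of detoxification and of stress responses. Of its 7 genes 6 had a higher mean in RECA1-OE, of which 1 was called, and 4 of the 7 were dim. UGT73B4 (AT2G15490), which glucosylates breakdown products of the explosive TNT and is induced by pathogens, had 5.97 and 7.05 in Col-0 and 8.47 and 8.70 in RECA1-OE. The groups were far apart, and the Col-0 arrays differed from each other by over 1 log2 unit. It rose by 2.07 ± 0.37 (SE), a 4.20-fold change (limma, adjusted p = 0.031), from 6.51 ± 0.76 to 8.58 ± 0.16 (SD, n = 2 each). Since its Col-0 mean lies in the dim range, the fold is uncertain in size. The call was lost without either RECA1-OE array and without the mean-variance trend, where the limma adjusted p was 0.171. UGT73B5 (AT2G15480), its neighbour, which is linked to the redox state in responses to infection, had 7.32 and 7.09 in Col-0 and 8.15 and 7.98 in RECA1-OE. It was higher on both RECA1-OE arrays, by 0.87 ± 0.20 (SE), with an adjusted p of 0.060. UGT73B1 (AT4G34138) had 8.20 and 8.52 in Col-0 and 8.62 and 8.64 in RECA1-OE, a narrow separation, and a difference of 0.27 ± 0.17 with a 95% interval of -0.15 to 0.69.

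UGT73C1 (AT2G36750), an enzyme that glucosylates cytokinins and TNT products in vitro, was called lower from dim signals. It had 5.41 and 5.36 in Col-0 and 2.18 and 2.38 in RECA1-OE. All 4 values lay under the dim limit, the 2 of each group were close to each other, and the log2 signal fell by 3.10 ± 0.60 (SE), with a limma adjusted p of 0.037. With 16 added to each linear value the fall was 1.47, so its size depends on how dim signals are treated, and no fold is given. The call was lost in 6 of 9 settings, among them the fits without any 1 array, with adjusted p values of 0.113 to 0.226, and its adjusted p ran from 0.024 to 0.226 over all 9. UGT73C2 (AT2G36760), its neighbour, had 4.67 and 2.28 in Col-0 and 4.60 and 4.16 in RECA1-OE, with 1 low Col-0 array and overlapping groups. UGT73D1 (AT3G53150) and UGT73C7 (AT3G53160), neighbours on chromosome 3, were dim genes with higher means in RECA1-OE. UGT73C7, which acts on phenylpropanoid acids, had 4.85 and 4.87 in Col-0 and 5.80 and 6.43 in RECA1-OE, with both RECA1-OE arrays higher and an adjusted p of 0.140. UGT73D1 had 5.80 and 5.66 in Col-0 and 7.09 and 6.78 in RECA1-OE, also without overlap, and its adjusted p was 0.074.

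UGT87A2 (AT2G30140), a gene that acts on flowering time through the repressor FLC, had the lowest adjusted p of the members. Its log2 signal was 8.73 and 8.43 in Col-0 and 10.33 and 10.16 in RECA1-OE. Both RECA1-OE arrays were higher by more than 1 unit than either Col-0 array, and it rose by 1.66 ± 0.16 (SE), a 3.2-fold change (limma, adjusted p = 0.0087). Leaving out each array kept the estimate between 1.52 and 1.81. The call was lost without either RECA1-OE array and without the mean-variance trend, where the limma adjusted p was 0.122. UGT88A1 (AT3G16520) had 12.19 and 11.95 in Col-0 and 12.29 and 12.27 in RECA1-OE, and its difference of 0.21 ± 0.15 had a 95% interval of -0.15 to 0.57. UGT80B1 (AT1G43620), which forms sterol glucosides of the seed coat and membranes, had 8.55 and 8.59 in Col-0 and 8.40 and 8.40 in RECA1-OE. Its arrays were close to each other within each group, the difference was -0.17 ± 0.14 (SE), and the adjusted p was 0.525.

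Among the 5 UGT85A genes, UGT85A2 (AT1G22360) rose. It had 9.28 and 9.12 in Col-0 and 10.04 and 9.96 in RECA1-OE. The groups were apart by several times the spread within them, and the rise was 0.80 ± 0.13 (SE), a 1.74-fold change (limma, adjusted p = 0.025). The call was lost without the mean-variance trend, at a limma adjusted p of 0.164. It was also lost without Col-0 replicate 2 and without either RECA1-OE array. With each array left out, the estimate stayed between 0.72 and 0.88. UGT85A5 (AT1G22370), its neighbour on chromosome 1, had 7.07 and 6.68 in Col-0 and 7.86 and 7.81 in RECA1-OE. RECA1-OE was again higher on both arrays, by 0.96 ± 0.23 (SE), with an adjusted p of 0.066. UGT85A4 (AT1G78270) had 7.56 and 7.28 in Col-0 and 7.78 and 8.01 in RECA1-OE, again without overlap, and an adjusted p of 0.233. The remaining neighbours UGT85A3 and UGT85A7 were dim, with overlapping groups. UGT85A7 had 6.07 and 3.81 in Col-0 and 5.34 and 3.77 in RECA1-OE, and the differences of the pair were -0.16 ± 0.48 and -0.39 ± 0.93 (SE). The acceptors of these enzymes in the plant are not well defined.

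**Figure D3:**
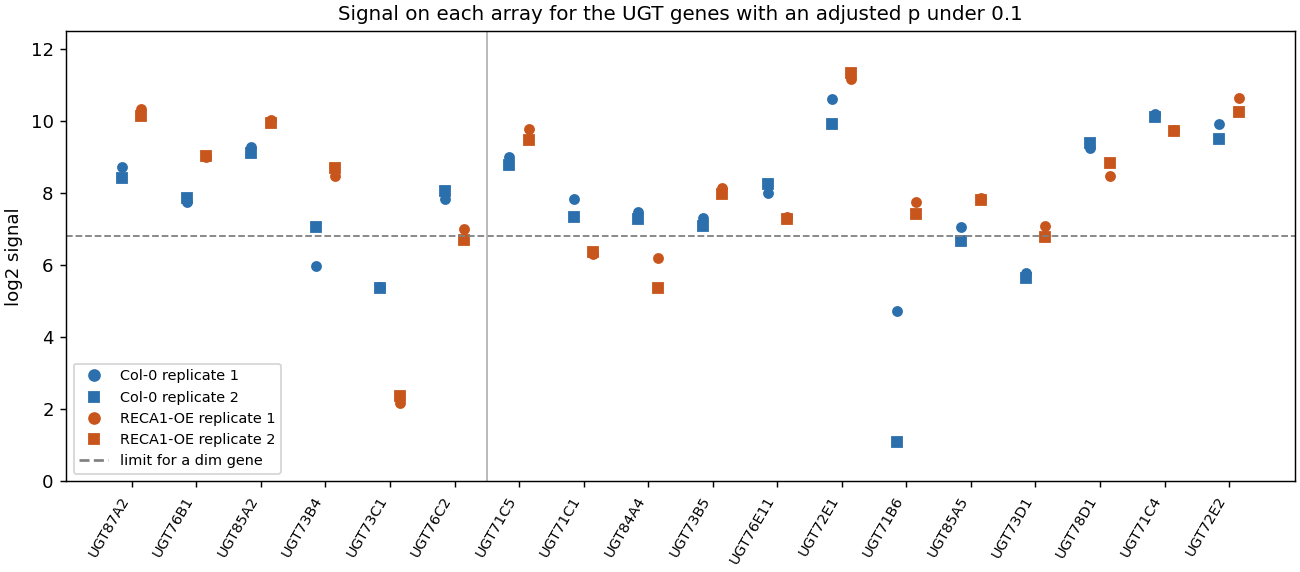
Log2 signal (y axis) on each of the 4 arrays for the 18 UGT genes with an adjusted p under 0.1 (x axis, in order of adjusted p), with circles for replicate 1, squares for replicate 2 and a dashed line at 6.82, the limit for a dim gene. The 6 genes left of the vertical line were called. In all 18 the Col-0 and RECA1-OE arrays do not overlap, but the genes were picked by p-values from these same arrays, so this adds no support.

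Position along the chromosomes was set beside the changes. Of the 46 genes, 31 lay in 13 groups in which each member was at most 3 protein-coding genes from the next in the TAIR10.1 order. In 6 of the 13 groups all members had a mean difference of 1 sign, and in 7 both signs occurred. UGT73B5 and UGT73B4 both had a higher mean in RECA1-OE, and UGT76C2 and UGT76C1 both a lower one. Of these genes only UGT73B4 and UGT76C2 were called. In the group of UGT85A7, UGT85A2, UGT85A5 and UGT85A3, the bright genes UGT85A2 and UGT85A5 had differences of 0.80 and 0.96. The dim genes at its ends had -0.39 and -0.16, and only UGT85A2 was called. UGT71C5 and UGT71C4 are both bright and had differences of 0.73 and -0.43 in opposite directions, and neither was called. Several signs in these groups rest on dim genes whose groups overlap, and whether a probe set also picks up RNA of a similar neighbour was not tested.

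**Figure D4:**
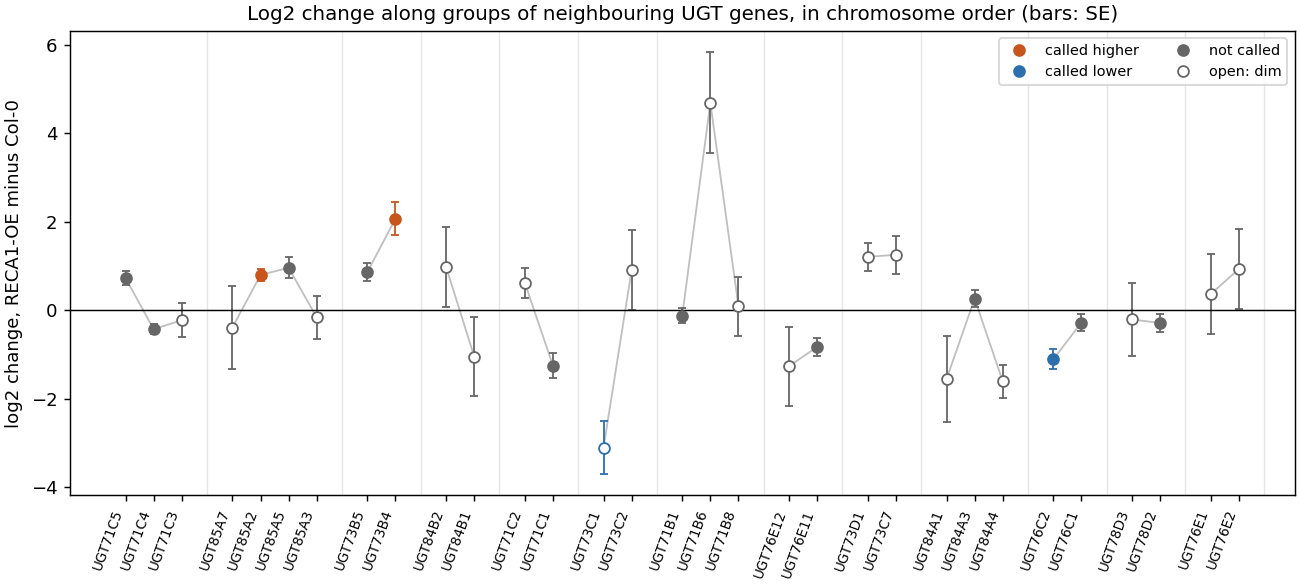
Log2 change (RECA1-OE minus Col-0, y axis, bars are SE) of the 31 UGT genes in 13 groups of neighbours (x axis, in chromosome order within a group, not to scale), with open symbols for dim genes. UGT73B5 and UGT73B4 lie together above 0, while UGT71C5 and UGT71C4 lie on opposite sides of it.

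Other genes of the pathways that supply or use UGT acceptors were measured in small numbers. Of 110 genes on 9 lists, 11 had a probe set paired with them alone, of which 3 rose and 0 fell. This is 27.3% of the 11, where 7.86% of all probe sets were called, 4.55% higher and 3.31% lower. The 3 genes that rose were bright, and 12.1% of all bright probe sets were called. The lists were chosen with earlier results of these data known, so the share is given as a description. SARD4, a reductase of pipecolic acid synthesis, is 1 of 2 measured genes of the list of 20 for salicylic and pipecolic acid, and it had 7.81 and 7.27 in Col-0 and 8.77 and 8.87 in RECA1-OE. It rose by 1.28 ± 0.22 (SE), with a limma adjusted p of 0.029. SAG101, a partner of the immune regulator EDS1, differed by 0.86 ± 0.41 and did not pass. In the phenylpropanoid list of 17, REF1, the aldehyde dehydrogenase that makes ferulate and sinapate, was the gene measured, with 11.12 and 10.96 in Col-0 and 12.25 and 11.97 in RECA1-OE. It rose by 1.08 ± 0.15 (SE), with a limma adjusted p of 0.018, and both RECA1-OE arrays were higher.

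Of 4 measured genes of auxin conjugation and oxidation, GH3.3, which joins auxin to amino acids, rose by 1.36 ± 0.22 (SE), with a limma adjusted p of 0.024. GH3.5, of the same activity, differed by 1.24 ± 0.30, DAO1, which oxidises auxin, by 0.32 ± 0.18 and GH3.17 by 0.10 ± 0.20, and these 3 did not pass. ARR15, a response regulator induced by cytokinin, was dim and differed by -2.69 ± 0.80 (SE), with an adjusted p of 0.101. The flavonoid genes 5MAT and DFR differed by -0.95 ± 0.46 and -0.55 ± 0.42, and GSTU25, of the xenobiotic response, by 0.50 ± 0.31, and none of the 3 passed. No gene of the lists for UDP-glucose supply, abscisic acid or brassinosteroids had a paired probe set, so the supply of the sugar donor was not analysed here.

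Markers of organs and of leaf ageing were set beside these values. The leaf gene RCA, 1 of 7 listed, differed by -0.07 ± 0.22 and the root genes PYK10 and EXPA7, 2 of 8 listed, by -0.43 ± 0.28 and -0.21 ± 0.26 (SE), and the 3 genes did not pass. Of 9 senescence markers 2 were measured. WRKY53, a transcription factor of senescence and defence, had 6.74 and 5.86 in Col-0 and 9.67 and 9.61 in RECA1-OE, and it rose by 3.34 ± 0.31 (SE), with a limma adjusted p of 0.0084, and the other marker was SAG101. SAG101 had 7.04 and 6.92 in Col-0 and 7.23 and 8.45 in RECA1-OE and did not pass. The linear signals of the 2 genes, summed and then put on the log2 scale, gave 7.49 to 7.90 in Col-0 and 9.91 to 10.14 in RECA1-OE. WRKY53 was the brighter of the 2 genes in RECA1-OE. The part of both genes in the UGT changes was not tested. In whole seedlings a change in the share of a cell type and a change of RNA per cell cannot be told apart.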

How the data were processed

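For every array the authors deposited log2 signals of the probe sets. Per the submitters' processing notes MAS5 was the tool; its version and scaling target are not given in the sources used here. RNA from each sample, 5 µg, was amplified and labelled with biotin from an oligo(dT) primer, per the labels' protocols. MAS5 signals carry large relative errors at the dim end, and scaling by 1 factor leaves curvature between arrays in place.

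Values under a linear signal of 1, 151 to 246 per array, were set to 1. RECA1-OE was compared with Col-0 with limma 3.58.1 in R 4.3.3 (lmFit, then eBayes with trend = TRUE; two-sided tests with Benjamini-Hochberg adjustment over all 22746 probe sets). All signal levels were kept, so that no member was tested only because 1 group was bright. The 2 residual degrees of freedom were supplemented by a median of 3.94 from the moderation. SE and 95% intervals are limma's. The steps were tested on simulated data. Names came from the platform annotation, in which 13513 had 1 gene, 503 several and 8730 none. All 46 members matched TAIR10.1 by Entrez ID. The values carry no genome build, and coordinates are therefore not given.

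The members and lists were chosen with earlier results of these data known. Values on each array are given for called members and for up to 3 further members of each family by smallest unadjusted p. They are also given for some other members of UGT71, UGT72, UGT73 and UGT76. The rest have their values in a clause or in ranges and counts, and up to 4 genes of each other list are named. Alternatives were quantile normalization, median centring, leaving out the lowest 40% or 60% of probe sets, adding 16 before log2, no trend, a block on replicate number, leaving out each array and a threshold of 0.1. The same settings were applied to the pathway and marker genes after the data were seen.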

Additional observations from a re-analysis of the deposited data

How the results depend on the processing

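The number of UGT genes called higher was 4 of 46 and of genes called lower 2, against 4.55% and 3.31% of all probe sets. Dropping the lowest 40% of probe sets gave 9 and 4 of 24, against 9.94% and 9.96% of the probe sets tested. Dropping the lowest 60% gave 6 and 1 of 15, where 11.2% and 11.9% of the probe sets tested were called higher and lower. With 16 added before log2 they were 5 and 4, against 4.86% and 3.54% of all probe sets. At an adjusted p under 0.1 they were 11 and 7, against 7.39% and 7.26%. Without the mean-variance trend limma called 0 members and 0 of all probe sets. Unadjusted p values under 0.05 were then found for 17 of 46 members and 4555 of 22746 probe sets. Leaving out each array left 1 array in a group. No member was then called lower, nor higher where the array left out was of RECA1-OE. Quantile normalization left 4 and 2, against 4.47% and 3.4% of all probe sets, and median centring gave 5 and 3, against 5.05% and 3.56%. With the replicate block the counts were 7 higher and 0 lower, against 3.98% and 2.35% of all probe sets, with UGT76C2 and UGT73C1 losing their calls and UGT71B6, UGT71C5 and UGT72E2 gaining one. The deviations of same-numbered arrays correlated at 0.003 over all probe sets and at -0.06 over the bright ones, and the cause of the shift was not tested. The smallest probe set per gene could not be tried, because each gene had 1.

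The 6 called genes kept their sign in every one of the 11 settings in which they were measured. Among all members the sign turned in 14 of 453 comparisons, in 10 genes, all dim, and 13 of the 14 came from leaving out 1 array. After quantile normalization the log2 change was 0.034 for UGT76D1 and 0.021 for RCA. Over the fits that each left out 1 array, it ran from -0.59 to 0.77 for UGT71B8, -0.62 to 0.18 for UGT71C3, -2.97 to 0.33 for UGT72E3, -0.28 to 2.105 for UGT73C2, -0.28 to 0.20 for UGT76D1, -0.084 to 0.82 for UGT76E1, -0.35 to 2.22 for UGT76E2, -0.43 to 0.021 for UGT78D3, -0.46 to 0.13 for UGT85A3 and -1.52 to 0.74 for UGT85A7. For the pathway gene GH3.17 the range was -0.12 to 0.32 and for RCA -0.25 to 0.099. SARD4, REF1, GH3.3 and WRKY53 lost their calls without the trend and without either RECA1-OE array, and SARD4 and REF1 also without Col-0 replicate 2. Dim signal limits what can be said of 22 genes, whose 95% intervals had a median width of 3.77 on the log2 scale against 0.93 for the bright ones.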

Other observations

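A further 3 probe sets were paired with a UGT gene together with another gene and therefore belong to no member. The probe set shared by UGT73B2 and UGT73B3, flavonoid glucosyltransferases beside UGT73B1 on chromosome 4, had a log2 signal of 9.46 and 9.13 in Col-0 and 10.60 and 10.97 in RECA1-OE. Both RECA1-OE arrays were higher, and it rose by 1.49 ± 0.18 (SE), with a limma adjusted p of 0.014. UGT73B1 next to them differed by 0.27 ± 0.17 and did not pass, and whether the 2 probe sets differ was not tested. Which of the genes gave the signal is not known. The probe set shared by UGT71D1 and AT2G29710 had 8.04 and 8.01 in Col-0 and 7.45 and 7.38 in RECA1-OE, lower in both RECA1-OE arrays, with a difference of -0.61 ± 0.18 and an adjusted p of 0.103. The probe set shared by UGT89B1, a flavonol 7-O-glucosyltransferase, and AT1G73885 differed by 0.23 ± 0.13 and did not pass.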
